A study of Mus musculus with 5 samples.

Results

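Cells in tissues hold on to each other through several kinds of junction, and 47 genes that encode or anchor them were followed here across 5 libraries of sorted mouse fat stem cells. The genes were taken by symbol from the deposited table of 54532 genes, and all 47 were found. They are 14 claudins, 9 other tight junction genes, 10 cadherins, 9 desmosome and plakophilin genes, 2 catenins and 3 connexins. By textbook use, 26 were classed as epithelial type, 12 as fibroblast type, 3 as endothelial type and 6 as other.

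Subcutaneous fat (SAT) and visceral fat (VAT) were taken from 30 wild-type mice on chow, aged 12 to 14 weeks, and the poly(A) RNA of sorted stromal cells was sequenced. Cells that carried CD31 (endothelial) or CD45 (immune) were gated out in both depots, and the rest were sorted on CD26, the peptidase made by Dpp4, and CD142, the tissue factor made by F3. SAT gave 1 library titled CD26+CD142- and 1 titled CD26-CD142+, while VAT gave 1 CD26+CD142+ library and 2 CD26-CD142+ libraries. Totals ran from 21706345 to 25357403 counts. The labels do not say whether libraries came from separate mice or pools, so p-values measure only the spread between these libraries, which may be technical.

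The labels of the SAT libraries go against each other. The title of SAT library 1 reads CD26+CD142-, whereas its library name is SAT_CD142_1. For SAT library 2 the title reads CD26-CD142+ and the name SAT_CD26_2. Dpp4 stood at 6.57 CPM in SAT library 1 and 1006 CPM in SAT library 2, and F3 at 618 CPM in SAT library 1 and 5.32 CPM in SAT library 2, which goes against both titles. CPM is the count scaled to a common library size. No library was moved to another gate, the SAT libraries are called by number, and gate results that need them are given under each of the labels in turn. The cells fitted their broad label: 8 of 8 mesenchymal progenitor markers were at 10 CPM or more in every library, with Dcn, a collagen-binding proteoglycan, between 9313 and 18341 CPM. The mitochondrial genome's transcripts made up 2.83% of all counts for SAT library 1 and 4.33% for VAT CD26-CD142+ library 1, against 0.554% to 0.633% in the other 3 libraries. In bulk RNA, fewer cells of a type and less RNA per cell cannot be told apart.

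As background, claudins and occludin seal the tight junction between neighbouring epithelial cells and set which ions pass, with ZO proteins (Tjp genes) tying them to actin. Cadherins bind across the gap in adherens junctions, held from within by catenins, and each cell type favours its own cadherin: E-cadherin (Cdh1) in epithelium, VE-cadherin (Cdh5) in endothelium, N-cadherin (Cdh2) and cadherin 11 (Cdh11) in mesenchyme. Desmosomes join desmoglein and desmocollin through plakoglobin, plakophilin and desmoplakin to keratin filaments, and connexins form gap junction channels. Fibroblasts in fat form loose adherens and gap junctions but no sealed sheet, whereas the mesothelium that covers visceral fat is a sheet with tight junctions and desmosomes.

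The sequences upstream of 4 epithelial-type genes are shown for reference, because the results below turn on these genes. No link between the sequences and the levels was tested. Epcam, an epithelial adhesion molecule, and Cldn4, a sealing claudin, were near 0 outside SAT library 1. Cldn3, another sealing claudin, and Dsp, which encodes desmoplakin, were the members that passed the test between the VAT gates. Each line is the 250 bases before the gene's start from RefSeq on GRCm38.p6, 5′ to 3′ on the gene's strand, at chr17:87635729-87635978 (plus strand) for Epcam, chr5:134946935-134947184 (minus strand) for Cldn4, chr5:134985964-134986213 (plus strand) for Cldn3 and chr13:38151044-38151293 (plus strand) for Dsp. Capitals mark CAGGTG or its reverse CACCTG, the E-box that ZEB and SNAIL repressors bind in epithelial genes.
Epcam: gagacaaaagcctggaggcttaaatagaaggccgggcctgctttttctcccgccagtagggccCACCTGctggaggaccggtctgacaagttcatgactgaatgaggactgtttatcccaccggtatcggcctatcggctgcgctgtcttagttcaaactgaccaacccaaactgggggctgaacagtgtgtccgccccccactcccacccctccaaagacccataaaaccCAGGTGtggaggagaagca
Cldn4: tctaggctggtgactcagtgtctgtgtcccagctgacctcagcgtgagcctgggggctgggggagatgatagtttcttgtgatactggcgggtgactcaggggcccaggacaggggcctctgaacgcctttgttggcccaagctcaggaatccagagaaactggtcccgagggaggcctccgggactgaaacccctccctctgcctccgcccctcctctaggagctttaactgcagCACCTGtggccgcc
Cldn3: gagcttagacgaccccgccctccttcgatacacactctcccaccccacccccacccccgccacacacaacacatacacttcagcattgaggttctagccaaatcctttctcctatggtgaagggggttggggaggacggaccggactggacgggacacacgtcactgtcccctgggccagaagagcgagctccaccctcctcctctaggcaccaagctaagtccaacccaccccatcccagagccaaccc
Dsp: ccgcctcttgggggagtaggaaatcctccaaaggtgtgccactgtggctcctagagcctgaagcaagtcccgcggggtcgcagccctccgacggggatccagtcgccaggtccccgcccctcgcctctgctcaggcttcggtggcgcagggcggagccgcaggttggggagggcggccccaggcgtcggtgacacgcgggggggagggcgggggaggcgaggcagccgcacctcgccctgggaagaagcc
The Epcam window held 2 matches, with first bases at -187 and -19 counted back from the start, and the Cldn4 window held 1, at -14. The Cldn3 and Dsp windows held 0. Of all 32851 windows of this length in the table, 17.2% held the motif on either strand. RefSeq entries were found for 26 of the 47 genes.

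Most of the junction genes were quiet, and the fibroblast-type genes had the largest summed CPM of any class in every library. Of the 47, 10 stood at 10 CPM or more in every library, 29 stayed under 10 CPM in every library, 11 stayed under 1 CPM in every library, and Cldn22, Cdh8 and Dsc3 had 0 counts in all 5. The 10 were Ctnna1, Gja1, Jam2, Jam3, Tjp1, Jup, Cdh13, Gjc1, Cldn12 and Ctnnd1. Among them, Jup was classed as epithelial type and Jam2 as endothelial type. Per length, in TPM (the count divided by gene length and scaled to a common total), Ctnna1 led with a median of 165.7 TPM over the libraries, followed by Cldn15 with 74.1 TPM, Gja1 with 66.4 TPM and Jam2 with 46.4 TPM. Summed over the 12 fibroblast-type genes, levels were 555 CPM in SAT library 1 and 646 CPM in SAT library 2, against 785 CPM in the VAT CD26+CD142+ library and 625 and 765 CPM in the VAT CD26-CD142+ libraries. The depots overlapped in this sum.

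**Figure D1:**
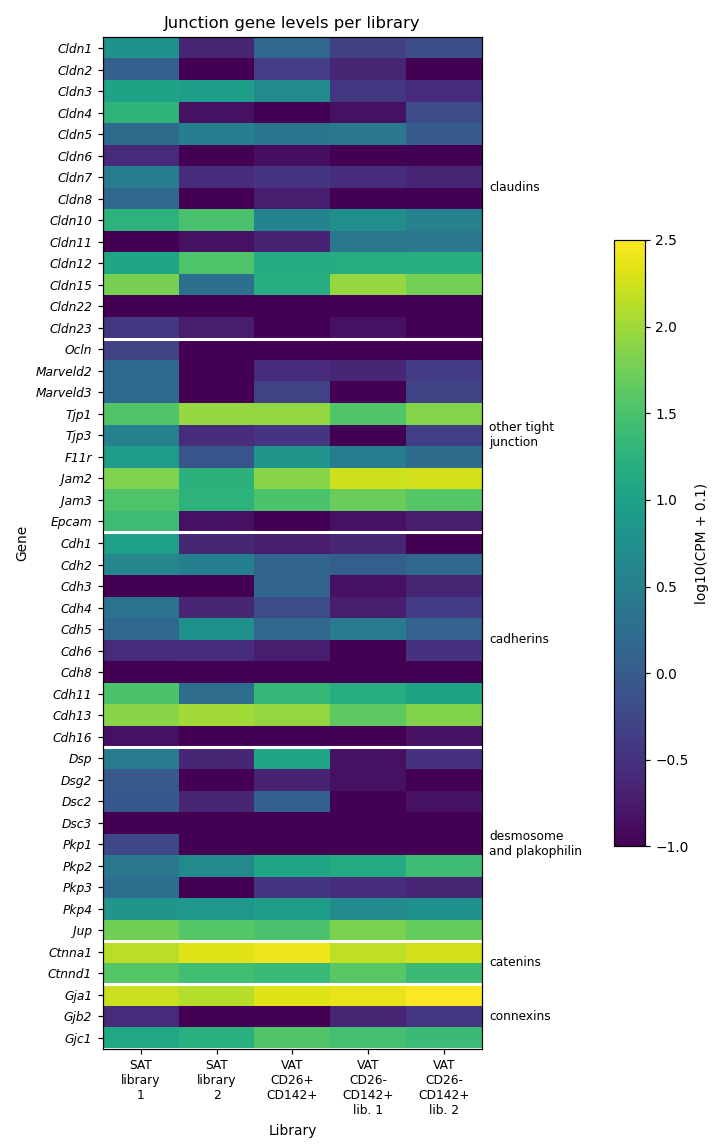
Levels of the 47 junction genes (rows, by family) in the 5 libraries (columns), as log10 of CPM plus 0.1, with 0 counts drawn darkest. The rows of both catenins and of the connexins Gja1 and Gjc1 are bright in every library, while many claudin, desmosome and occludin-family rows are lit in SAT library 1 and dark elsewhere.

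Among the adherens junction genes of fibroblast type, alpha-catenin was the most abundant, and cadherin 11 was low in 1 library. Ctnna1, which links cadherin complexes to actin, had 136 and 217 CPM in SAT libraries 1 and 2, against 257 CPM in VAT CD26+CD142+ and 148 and 188 CPM in VAT CD26-CD142+ libraries 1 and 2. The depots overlapped. Its partner Ctnnd1, p120-catenin, which holds cadherins at the membrane, had 37.6 and 26.4 CPM in SAT, against 23.6, 38.8 and 24.1 CPM in the VAT libraries in the same order. Cdh13, a cadherin held by a lipid anchor and known as an adiponectin receptor, had 76.0 and 104 CPM in SAT, against 87.1, 42.4 and 68.8 CPM in VAT. Both overlapped between depots.
Cdh11 had 32.1 and 1.67 CPM in SAT libraries 1 and 2, against 21.5, 15.3 and 10.8 CPM in VAT, so that SAT library 2 lay below every other library. Cdh2 was low, at 4.02 and 3.11 CPM in SAT and 1.28, 1.05 and 1.42 CPM in VAT, with both SAT libraries above all VAT libraries. Cdh4, R-cadherin, reached 1.90 CPM in SAT library 1 and 0.535 CPM or less elsewhere. Pkp4, a plakophilin relative found at adherens junctions, was even, between 4.81 and 8.69 CPM.

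The gap and tight junction genes of fibroblast type were present in all libraries. Gja1, connexin 43, had 167 and 129 CPM in SAT, against 218, 245 and 318 CPM in VAT, and Gjc1, connexin 45, had 12.1 and 16.7 CPM in SAT, against 35.3, 28.5 and 24.3 CPM in VAT. For both, each SAT library lay below each VAT library. Gjb2, connexin 26 of epithelia, had at most 0.258 CPM. Tjp1, which encodes the scaffold ZO-1, had 35.5 and 88.9 CPM in SAT, against 86.0, 35.8 and 70.4 CPM in VAT. Cldn12, a claudin tied to calcium passage, had 11.2 and 34.2 CPM in SAT, against 14.2, 14.7 and 16.0 CPM in VAT, where the spread was small. Jam3, a junctional adhesion molecule, had 33.9 and 18.5 CPM in SAT, against 32.5, 49.7 and 37.6 CPM in VAT. These 3 overlapped between depots.

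A few members outside the fibroblast class were also well expressed. Jup, plakoglobin, which serves both desmosomes and adherens junctions, had 55.4 and 37.8 CPM in SAT, against 31.8, 62.6 and 47.9 CPM in VAT. Jam2, an adhesion molecule best known from endothelium, had 67.1 and 17.6 CPM in SAT, against 76.7, 172 and 184 CPM in VAT, and was below every VAT library in both SAT libraries. Cldn15, a pore-forming claudin of the gut, had 60.6 and 1.89 CPM in SAT, against 15.1, 89.0 and 59.3 CPM in VAT. The other endothelial genes were low: Cdh5 had 1.43 and 5.54 CPM in SAT and 1.16 to 2.56 CPM in VAT, and Cldn5 had 1.51 and 3.15 CPM in SAT and 0.902 to 2.43 CPM in VAT. Of 9 endothelial markers, 8 stayed at 7.25 CPM or less in every library, and Tek, a receptor for angiopoietins, had 19.8 and 290.1 CPM in SAT, against 286 CPM in VAT CD26+CD142+ and 58.8 and 66.6 CPM in VAT CD26-CD142+. Their part in the Jam2, Cdh5 and Cldn5 levels was not tested.

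SAT library 1 held epithelial junction transcripts that were near 0 in every other library. Epcam had 583 counts there (25.2 CPM, exact Poisson 95% interval 23.2 to 27.3), against 1, 0, 1 and 2 counts in SAT library 2, VAT CD26+CD142+ and the VAT CD26-CD142+ libraries. Cldn4 had 435 counts there (18.8 CPM, interval 17.1 to 20.6), against 1, 0, 1 and 13 counts in the same order. Cdh1 had 222 counts there (9.59 CPM, interval 8.37 to 10.9), against 3, 2, 3 and 0 counts. These intervals hold counting error alone, because PCR copies of a molecule cannot be told from separate molecules here.
Over SAT library 2, the ratio of CPM was 559 for Epcam (exact conditional interval 100.0 to 22121), 417 for Cldn4 (74.5 to 16515) and 71.0 for Cdh1 (24.0 to 347). These ratios rest on 1 to 3 counts in SAT library 2, so their upper ends are loose. With 1 library on each side there is no replicate check and no test.

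The excess ran through most, but not all, of the epithelial class. Of the 26 epithelial-type genes, 24 had at least 1 count in SAT library 1, against 14 in SAT library 2, 18 in VAT CD26+CD142+ and 17 and 18 in VAT CD26-CD142+. At 1 CPM or more stood 16 in SAT library 1, against 4, 9, 4 and 4. Of the 25 with any count, 72.0% had their highest CPM in SAT library 1, against 23.0% of all counted genes.
By a rule chosen after the values were seen, 7 genes were at 1 CPM or more in SAT library 1 and at least 5-fold above each other library: Epcam, Cldn4, Cdh1, Cldn7, Cldn8, Tjp3 and Pkp3. They are 7 of the 33 members at 1 CPM or more there, and 1.69% of all such genes met the same rule. In the VAT CD26+CD142+ library the rule found 1 of 24, Cdh3, against 0.356% of all genes. It found 0 of 19, 0 of 20 and 0 of 19 in SAT library 2 and VAT CD26-CD142+ libraries 1 and 2, against 0.678%, 0.0606% and 0.0678% of all genes.

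**Figure D2:**
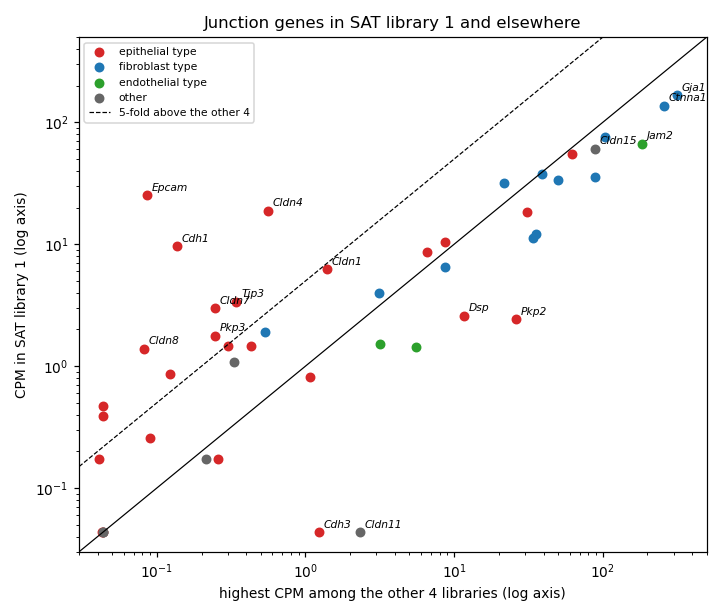
Each point is 1 of the 47 genes, with its CPM in SAT library 1 (vertical) against its highest CPM in the other 4 libraries (horizontal), both on log axes and coloured by class, with 0 drawn at the CPM of 1 count in SAT library 1. Epithelial-type genes such as Epcam at 25.2 CPM and Cdh1 at 9.59 CPM lie above the dashed 5-fold line, while fibroblast-type genes lie near the solid line of equality.

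Most of the lesser epithelial members were also highest in SAT library 1. Cldn1, a sealing claudin of skin, had 6.22 CPM in SAT library 1, against 0.135 CPM in SAT library 2, 1.40 CPM in VAT CD26+CD142+ and 0.366 and 0.601 CPM in VAT CD26-CD142+. Cldn7 had 2.98 CPM in SAT library 1 and 0.247 CPM or less elsewhere, Cldn8 had 1.38 CPM and 0.0823 CPM or less elsewhere, and the epithelial scaffold gene Tjp3 (ZO-3) had 3.37 CPM and 0.344 CPM or less elsewhere. Marveld2 (tricellulin) and Marveld3, occludin relatives, each had 1.47 CPM in SAT library 1 and 0.430 CPM or less elsewhere. The plakophilin Pkp3 had 1.77 CPM there and 0.247 CPM or less elsewhere. Ocln and Pkp1 had 9 and 11 counts in SAT library 1 and 0 in the other 4. Dsg2, a desmoglein, had 20 counts in SAT library 1 and 3 or fewer elsewhere. Cldn2, a pore-forming claudin classed as other, had 25 counts there and 8 or fewer elsewhere.
Cldn6, Cldn23, Cdh6 and Cdh16 had at most 6 counts in any library. Tjp3 lies over Apba3 on the opposite strand, which had 6463 counts over the 5 libraries against 96 for Tjp3, and the strand setting of the counting was not stated, so reads of the pair cannot be told apart. Jam3 likewise overlaps the antisense gene Gm48796, which had 262 counts against 3947.

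Not all epithelial-type genes had that pattern. Jup, Cldn10 and Pkp2, which are also of this class, were not highest in SAT library 1. Jup was highest in VAT CD26-CD142+ library 1, at 62.6 CPM against 55.4 CPM in SAT library 1. Cldn10 was highest in SAT library 2, at 31.1 CPM against 18.2 CPM in SAT library 1. Pkp2 was highest in VAT CD26-CD142+ library 2, at 26.0 CPM against 2.42 CPM in SAT library 1. Cldn3 (ENSMUSG00000070473, chr5:134986214-134987472, plus strand, mm10) had 10.5 and 8.70 CPM in SAT libraries 1 and 2, against 4.45, 0.275 and 0.172 CPM in VAT, and both SAT libraries lay above all VAT libraries. Its neighbour Cldn4 (ENSMUSG00000047501, chr5:134945119-134946934, minus strand) lies 39279 bases away. F11r, which encodes JAM-A, had 8.60 and 0.721 CPM in SAT, against 6.55, 2.93 and 1.63 CPM in VAT. Dsp (ENSMUSG00000054889, chr13:38151294-38198577, plus strand) had 2.59 and 0.135 CPM in SAT, against 11.7, 0.0458 and 0.215 CPM in VAT, and was highest in the VAT CD26+CD142+ library. So were Dsc2, a desmocollin, with 19 and 3 counts in SAT, against 26, 0 and 1 in VAT, and Cdh3, P-cadherin of epithelia, with 0 counts in both SAT libraries, against 30, 1 and 3 in VAT.

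Other epithelial genes stood beside these junction genes in SAT library 1. The 17 epithelial markers summed to 137 CPM in SAT library 1, against 5.63 CPM in SAT library 2, 28.0 CPM in VAT CD26+CD142+ and 1.69 and 4.38 CPM in VAT CD26-CD142+. The cytokeratin Krt19 had 63.6 CPM in SAT library 1, against 3.74, 25.5, 0.0916 and 1.85 CPM in the other libraries in the same order. Ltf (lactoferrin), the milk protein gene Csn3 (kappa-casein) and Wfdc18 had 23.8, 17.0 and 13.1 CPM in SAT library 1 and at most 0.225 CPM elsewhere. Krt17 was at 0 and the basal keratins Krt5 and Krt14 were at 0.453 CPM or less in every library. Their part in the junction gene levels was not tested.
The 12 mesothelial markers summed to 117 CPM in SAT library 1, 1.26 CPM in SAT library 2, 372 CPM in VAT CD26+CD142+ and 144 and 195 CPM in VAT CD26-CD142+. In SAT library 1, Krt8 (45.7 CPM), Krt18 (46.6 CPM) and Krt7 (16.1 CPM), which other epithelia also make, gave most of that sum. Msln, Wt1 and Bnc1 were at 0 there, and the other 6 were present, led by Nkain4 at 6.57 CPM in SAT library 1 and 0.360 CPM in SAT library 2, with Muc16 at 1.21 CPM in SAT library 1 and 0 in SAT library 2. In the VAT CD26-CD142+ libraries, Wt1 at 113 and 154 CPM and Nkain4 at 28.2 and 24.8 CPM gave most of the sums. In VAT CD26+CD142+ they had 112 and 23.5 CPM.

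**Figure D3:**
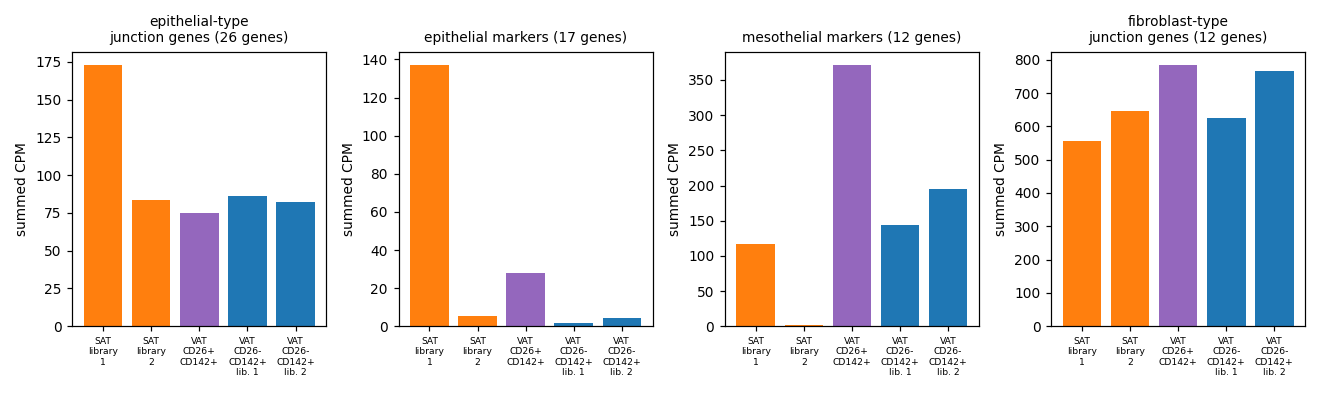
Summed CPM per library for the 26 epithelial-type junction genes, 17 epithelial markers, 12 mesothelial markers and 12 fibroblast-type junction genes (bars from 0, 1 bar per library, orange SAT, purple VAT CD26+CD142+, blue VAT CD26-CD142+). SAT library 1 leads the first pair of panels, at 173 and 137 CPM, and VAT CD26+CD142+ leads the mesothelial panel at 372 CPM.

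Between the SAT libraries, which differ in gate, 16 members had 10 CPM or more in at least 1 of them. After 1 CPM was added to each value, 5 were at least 2-fold higher and 2 at least 2-fold lower in SAT library 1, against 22.4% of 9689 genes (11.3% higher and 11.2% lower). The 5 were Epcam, Cldn4, Cldn15, Cdh11 and Jam2. Over SAT library 2, SAT library 1 had a ratio of 32.0 for Cldn15 (exact conditional 95% interval 23.6 to 44.7), 19.3 for Cdh11 (13.8 to 27.6) and 3.81 for Jam2 (3.41 to 4.27), intervals that cover counting error only. Cldn12 and Tjp1 were the 2 lower, with SAT library 2 above SAT library 1 by 3.06 (2.65 to 3.53) and 2.50 (2.31 to 2.72) times.
Of 79 further junction genes, 15 had 10 CPM in a SAT library, and 5 were lower and 0 higher in SAT library 1. The lower ones included Vcl (vinculin, an actin link of adherens junctions), at 11.2 CPM in SAT library 1 and 74.3 CPM in SAT library 2, Ildr2 at 45.7 and 183 CPM, Magi3 at 22.3 and 57.4 CPM, and Cdh9 at 4.49 and 30.9 CPM.
The SAT libraries also differ in the number that ends their library names, as do the VAT CD26-CD142+ libraries, which share 1 gate. Between those VAT libraries 1 and 2, Tjp1 stood at 35.8 and 70.4 CPM and Vcl at 14.4 and 69.0 CPM, with the higher value in library 2 as in SAT. Ildr2 stood at 16.3 and 27.0 CPM, Magi3 at 34.1 and 47.1 CPM, Cdh9 at 0.275 and 0.644 CPM, Cldn12 at 14.7 and 16.0 CPM, Cldn15 at 89.0 and 59.3 CPM and Cdh11 at 15.3 and 10.8 CPM, again with the same library number higher as in SAT but by less. Jam2 at 172 and 184 CPM and Cldn4 at 0.0458 and 0.558 CPM went the other way, and Epcam had 1 and 2 counts. In SAT, gate and library number cannot be told apart.

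Within VAT, 2 members passed the test between gates and both were higher in CD26+CD142+ cells. Dsp had 11.7 CPM in the 1 CD26+CD142+ library and 0.130 ± 0.119 CPM in the CD26-CD142+ libraries (SD, n = 2), a log2 change of 6.42 (SE 0.91, edgeR quasi-likelihood adjusted p = 0.00174). Its counts were 285 in CD26+CD142+, against 1 and 5 in the CD26-CD142+ libraries. Cldn3 had 4.45 CPM in CD26+CD142+ and 0.223 ± 0.073 CPM in CD26-CD142+ (SD, n = 2), a log2 change of 4.29 (SE 0.73, edgeR adjusted p = 0.00535). They are 2 of 26 members tested, with 0 lower, against 1.6% of all 15920 genes tested (0.898% higher and 0.697% lower). Dsp passed the filter through its 60 counts in SAT library 1 and its 285 in CD26+CD142+. Its place among the 26 thus depends on the library where it is high, and the share is not read as a result about the members. With limma-voom Dsp passed (adjusted p = 0.0187) and Cldn3 did not (adjusted p = 0.0880). The median log2 change was 0.22 over the 26 members and -0.03 over all genes tested.
The fit has 1 residual degree of freedom, from the pair of CD26-CD142+ libraries, and assumes that a lone library varies like that pair. The SE given throughout is derived from F, as the size of the change over its root. No SE was fitted, and the one given may be too narrow where counts are few.

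Cldn15 just missed the threshold. It had 15.1 CPM in CD26+CD142+ cells, against 74.2 ± 21.0 CPM in CD26-CD142+ cells (SD, n = 2), a log2 change of -2.29 (SE 0.55, edgeR adjusted p = 0.0511). It passed when either SAT library was left out of the fit (edgeR adjusted p = 0.0149 without SAT library 1 and 0.0161 without SAT library 2), and Dsp and Cldn3 passed there too. It also passed as lower with DESeq2 (adjusted p = 0.00228), limma-voom (0.0343), no filter (0.00407) and upper-quartile scaling (0.00914). Another 5 members had an unadjusted p under 0.05 and missed the adjusted threshold. Dsc2, a desmosomal cadherin, had 26 counts in CD26+CD142+ and 0 and 1 in CD26-CD142+, a ratio of 48.3 (exact conditional interval 7.93 to 1980). Cldn11, the claudin of myelin and of the testis, had 3 counts in CD26+CD142+ and 51 and 54 in CD26-CD142+, which were 18.8 times higher (6.27 to 92.8). Cldn4 had 0 counts in CD26+CD142+, against 1 and 13 in CD26-CD142+. Jam2 had a log2 change of -1.21 (SE 0.50, edgeR adjusted p = 0.430) and F11r of 1.52 (SE 0.68, edgeR adjusted p = 0.533).

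**Figure D4:**
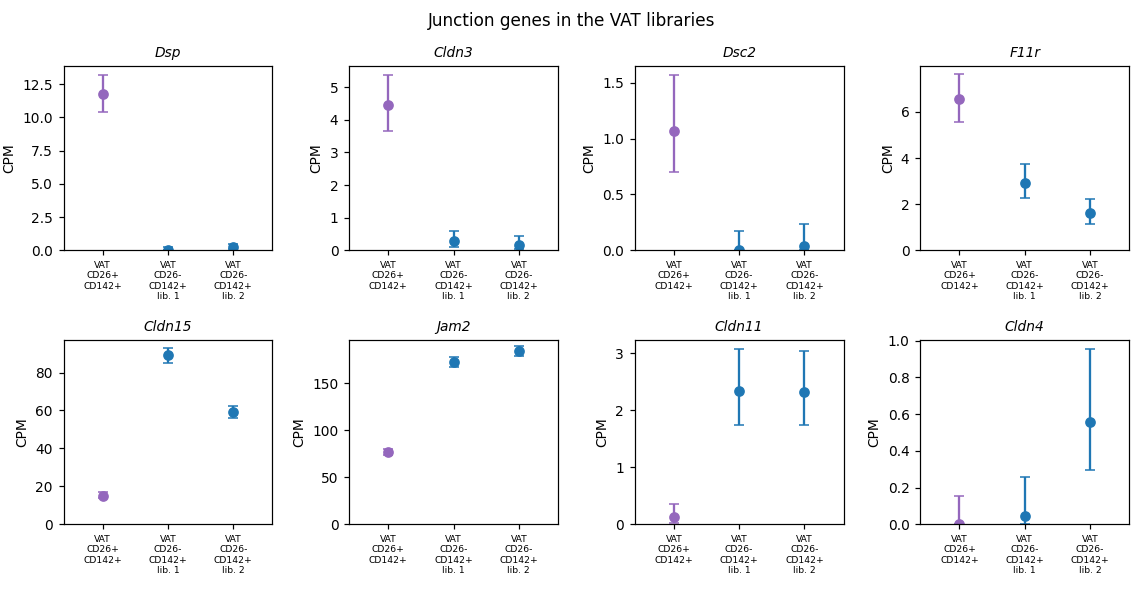
CPM of the 8 junction genes with the lowest p between the VAT gates, in the CD26+CD142+ library (purple) and the 2 CD26-CD142+ libraries (blue), with exact Poisson 95% intervals of the counts as bars. Dsp at 11.7 CPM and Cldn3 at 4.45 CPM stand above both CD26-CD142+ libraries, and Cldn15 at 15.1 CPM stands below both.

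Most mesothelial markers moved with these genes in VAT. Of the 12, 5 rose in CD26+CD142+ and 0 fell, against 0.898% of all genes higher and 0.697% lower. Some of the 12 passed the filter in part through the lone CD26+CD142+ library, such as Bnc1 with 130 counts there, against 0 and 11 in CD26-CD142+. The share is thus not read as a result about the markers. All 12 had 1 CPM or more in CD26+CD142+, against 2 and 5 in the CD26-CD142+ libraries. Msln (mesothelin) had 38.5 CPM in CD26+CD142+, against 0.779 and 2.41 CPM in CD26-CD142+, and Upk3b (uroplakin) 96.1 CPM, against 0.321 and 8.42 CPM. Wt1, which visceral stromal cells make as well, was not higher, at 112 CPM against 113 and 154 CPM. Nor was Nkain4, at 23.5 CPM against 28.2 and 24.8 CPM. The markers' part in the Dsp and Cldn3 differences was not tested. Among the 79 further junction genes, 35 were tested in this contrast. Of these 35, 2 rose and 0 fell, against the same 0.898% and 0.697% of all genes. Ildr2, a tricellular junction gene, had 170 CPM in CD26+CD142+, against 16.3 and 27.0 CPM (log2 change 2.97, SE 0.48, edgeR adjusted p = 0.00370), and Cxadr, a virus receptor of tight junctions, had 8.40 CPM, against 0.184 and 0.988 CPM (3.82, SE 0.88, edgeR adjusted p = 0.0450).

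Between the depots, 0 of 26 members passed the test, with edgeR calling 0.0503% of all 15920 genes, 8 in number (0.0377% higher and 0.0126% lower). The depots also differ in their gates, since VAT had no CD26+CD142- library and SAT had no CD26+CD142+ library. Depot and the mix of gates thus cannot be told apart in this contrast. At an unadjusted p under 0.05 stood 7 members: Cldn10, Pkp2, Gjc1, Cdh2, Cldn11, Gja1 and Jam2. Over the 26, the median log2 change was 0.14, against 0.01 over all genes tested, with 15 positive and 11 negative. Cldn10, a claudin that forms ion pores, had the lowest p, with 18.2 and 31.1 CPM in SAT, against 3.71, 5.36 and 3.48 CPM in VAT. It averaged 24.7 ± 9.1 CPM in SAT (SD, n = 2) and 4.18 ± 1.03 CPM in VAT (SD, n = 3), a log2 change of 2.56 (SE 0.36, edgeR adjusted p = 0.185). Pkp2, a plakophilin, had 2.42 and 4.33 CPM in SAT, against 11.6, 13.9 and 26.0 CPM in VAT, a log2 change of -2.34 (SE 0.52, edgeR adjusted p = 0.377).
For Cldn10 and Pkp2 no SAT library reached the range of the VAT libraries, yet the difference missed the threshold over all genes. DESeq2 called both, with 2.92% of all genes called.

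The connexins and N-cadherin were also among the 7. Gjc1 averaged 14.4 ± 3.2 CPM in the SAT libraries and 29.4 ± 5.6 CPM in the VAT libraries (log2 change -1.03, SE 0.29, edgeR adjusted p = 0.507), and Gja1 averaged 148 ± 27 CPM in SAT, against 260.3 ± 51.9 CPM in VAT (-0.82, SE 0.30, edgeR adjusted p = 0.681). Cdh2 averaged 3.56 ± 0.64 CPM in SAT, against 1.25 ± 0.18 CPM in VAT (1.51, SE 0.44, edgeR adjusted p = 0.518). Errors are SD over 2 SAT and 3 VAT libraries. Jam2 had a log2 change of -1.77 (SE 0.70, edgeR adjusted p = 0.738). Cldn11 had 0 and 1 counts in SAT, against 3, 51 and 54 in VAT, which was 70.6 times higher (exact conditional interval 12.4 to 2812), and in VAT nearly all of it was in CD26-CD142+ cells. Of the 26 members past the filter, Cldn3, Cldn10 and Cdh2 had both SAT libraries above all VAT libraries, and Cldn11, Jam2, Pkp2, Gja1 and Gjc1 had both below, against 9.63% of genes above and 10.2% below.

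**Figure D5:**
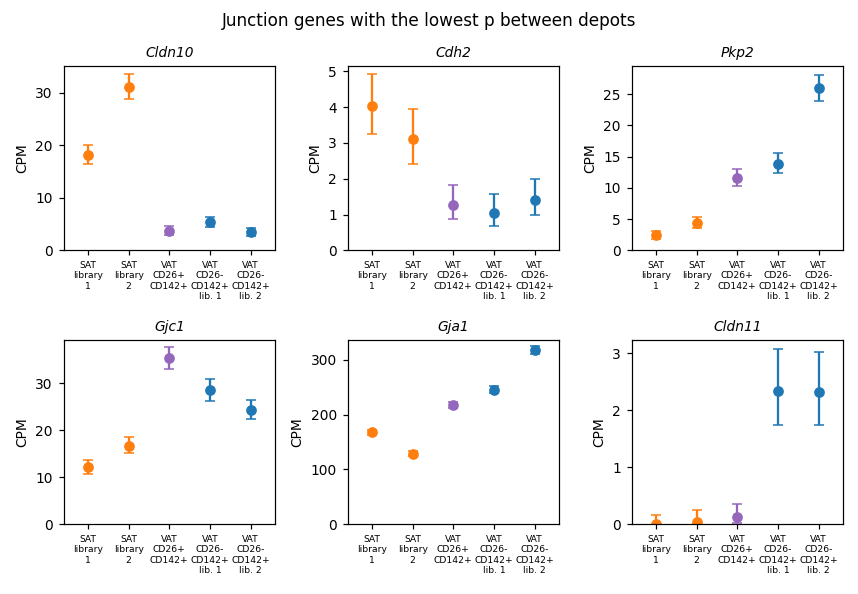
CPM of the 6 junction genes with the lowest p between depots in SAT (orange), VAT CD26+CD142+ (purple) and VAT CD26-CD142+ (blue) libraries, with exact Poisson 95% intervals of the counts as bars. SAT libraries lie above VAT for Cldn10 and Cdh2 and below for Pkp2, Gjc1, Gja1 and Cldn11.

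Taking the gates of both depots together, with depot as a term, no member passed under either reading of the SAT labels. By title, CD26+ against CD26-, edgeR called 0 of 26 members and 0% of all genes, with 140 genes and 4 members at an unadjusted p under 0.05. DESeq2 called 1 member, Dsp, and 0.101% of all genes. By library name, edgeR called 0 of 26 members, against 0.597% of all genes (0.32% higher and 0.276% lower). There, 2551 genes and 6 members had an unadjusted p under 0.05. The 6 were Jam2 (log2 change -1.51, SE 0.27, edgeR adjusted p = 0.101), Cldn4, Cldn15 (-3.28, SE 0.71, 0.131), Jup, Ctnna1 and Tjp1. DESeq2 called 3 of the 26 members, Jam2, Cldn15 and Cldn4, against 8.4% of all genes. The fitted log2 change, CD26+ over CD26-, was negative for Jam2, Cldn15, Cldn4 and Jup and positive for Ctnna1 and Tjp1. By name, the sort gene Dpp4 itself was higher in CD26+ cells (6.64, SE 0.40, edgeR adjusted p = 0.0368); by title it did not pass (4.20, SE 4.05, edgeR adjusted p = 1.00).

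The gate effect in VAT minus that in SAT was also tested, as an interaction added after the data were seen. By title, 1 member was higher (Cldn3) and 4 were lower (Cldn15, Cldn4, Cdh11 and Jam2), against 6.61% of all genes (2.73% higher and 3.89% lower). By library name, 2 members were higher (Dsp and Cdh11) and 0 lower, against 0.251% of all genes (0.214% higher and 0.0377% lower). Cdh11, the mesenchymal cadherin, passed in opposite directions under the labels, because swapping them reverses the SAT part of the contrast.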

How the data were processed

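The authors deposited raw read counts per gene in 1 table, with a gene length in another unit, bases. The submitters' processing notes name mm10 as the build, and featureCounts 1.5.0-p3, HISAT2 2.0.5 and CASAVA as tools. The annotation release and strand setting were not given in the sources used here. Of the 47 genes, 47 were found in GENCODE M21 and 45 had the same start and end there.

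Counts were tested with edgeR 4.0.16 (R 4.3.3) by quasi-likelihood F tests with robust dispersion, TMM scaling and Benjamini-Hochberg adjustment at 0.05 over all genes kept. The filter filterByExpr (depot as its group, minimum count 10) kept 15920 genes and 26 of the 47. The other 21, Epcam and Cdh1 among them, were not tested. A gene with counts in 1 group only can pass such a filter through that group, so a count over the 26 is not a count over the 47. Residual degrees of freedom were 3 for depot, 1 for the VAT gate and 2 for the gate with depot as a term. CPM are TMM scaled, and TPM use the deposited lengths. A count of 3 is the floor, 0.124 to 0.137 CPM per library, for counting error only. The fits were checked on simulated data, where the check required only the right sign for large changes in well-counted genes. It left out genes with few counts and does not bear on their p-values. Alternatives were DESeq2 1.42.0, limma-voom (limma 3.58.1), other scalings, no filter, left-out libraries and a replicate block.

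Members, gene lists and tests were chosen with earlier results of these data known. Any of the 47 could be named, with the value in every library for those past a test or at 10 CPM or more in at least 1 library. Other genes were named with their list where they passed a test, were 2-fold apart between the SAT libraries at 10 CPM or more, or ranked in the top 3 of their list in a library. Genes outside these rules that are named (Krt5, Krt14, Krt17, Bnc1, Muc16, and those overlapping a member) were chosen after their values were seen. The values of 1 further junction gene are not reported here.

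Marker lists not described elsewhere summed, over SAT library 1, SAT library 2, VAT CD26+CD142+ and VAT CD26-CD142+ libraries 1 and 2, to 149, 40.6, 22.7, 70.4 and 102 CPM for 7 mural markers, 48.4, 56.9, 13.5, 16.8 and 16.9 CPM for 6 Schwann cell markers, 30.4, 8.29, 16.4, 28.0 and 18.6 CPM for 5 macrophage markers and 1.04, 0.0451, 0.247, 5.68 and 0.687 CPM for 5 epididymal markers.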

Additional observations from a re-analysis of the deposited data

Results flagged for a closer look

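The difference between the depots in the gate effect (VAT minus SAT, on the log2 scale) was tested as an interaction in the 4-group edgeR fit, a test added after seeing the data. Since the SAT labels conflict, each sign depends on which label is used, and each value rests on 1 library for each SAT gate and for VAT CD26+CD142+.

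By title, 5 of 26 members passed, against 6.61% of all genes. The gate effect was higher in VAT for Cldn3 (4.02, edgeR adjusted p = 0.0326). It was lower in VAT for Cldn15 (-7.29, adjusted p = 1.07e-04), Cdh11 (-3.54, adjusted p = 0.0138) and Jam2 (-3.14, adjusted p = 0.0173). Cldn4 had -14.38 (adjusted p = 0.00425), a fitted value that is no bound because VAT CD26+CD142+ had 0 counts.

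By library name, 2 of 26 passed, against 0.251% of all genes. The gate effect was higher in VAT for Cdh11 (4.99, adjusted p = 0.0120), whose SAT library 2 level of 1.67 CPM was the lowest of the 5. It was also higher for Dsp (10.63, adjusted p = 0.00773), with 11.7 CPM in VAT CD26+CD142+, while SAT library 1 had 2.59 CPM and SAT library 2 only 3 counts. Cdh11 changed sign with the label because swapping the labels reverses the SAT part of this contrast. For Cdh11 that part (32.1 and 1.67 CPM in SAT libraries 1 and 2) was larger than the VAT part. In VAT it had 21.5 CPM in CD26+CD142+, against 15.3 and 10.8 CPM in CD26-CD142+.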

How the results depend on the processing

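Between depots, DESeq2 called 2 members (Cldn10 and Pkp2), no filter called 1 (Cldn10) and the other 10 alternatives called 0, left-out libraries included. With the library number as a replicate block, 0 members and 5 genes were called. Deviations from the depot mean correlated at 0.662, 0.019 and 0.646 between libraries of 1 number. With 2 SAT libraries, the values between numbers are fixed as the negatives of these. Gate also differs with number in SAT, so the correlations cannot decide on pairing. The main fits did not take the libraries as paired. By title the CD26 gate gave 1 with DESeq2, against 0.101% of all genes, and 0 with either VAT CD26-CD142+ library left out. By library name it gave 3 with DESeq2, against 8.4% of all genes, and 3 of 44 with no filter, against 2.83%. Without VAT CD26-CD142+ library 1 or 2 it gave 1 of 25 and 2 of 24, against 0.892% and 13.2% of all genes. Leaving out another library leaves 1 library in a group, so no count is given. For the VAT gate, VAT libraries alone called 1 (Cldn15), since its filter removed Dsp and Cldn3; with the genes kept over 5 libraries, an alternative added after seeing the data, all 3 passed. Cldn3 was lost with limma-voom (log2 change 4.23, adjusted p = 0.0880). With a CD26-CD142+ library left out there is no test, and the log2 change was 5.74 to 7.85 for Dsp and 4.00 to 4.65 for Cldn3. At 5 CPM in the higher library, 11 members were 2-fold apart between the SAT libraries. The gate effect by depot called 0 (limma-voom), 5 (no filter) and 5 (upper-quartile scaling) by name and 3 (limma-voom) by title. These counts stand without the share of all genes called, so they are not read as a result about the members. With raw library sizes the epithelial-type sum was 158.1 CPM in SAT library 1 and 81.1 CPM in VAT CD26+CD142+, and the fibroblast-type sum 506.3 and 848 CPM. Over all tested members 94 of 1448 fits of a gene under an alternative changed sign, 0 of them for a called gene. Except where stated, the cause of each change was not tested. Members with few counts are limited by depth.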
